A study of Arabidopsis thaliana with 32 samples.

Results

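A set of 10 genes of phosphate transport and phosphate starvation was followed through a study of magnesium withdrawal in Arabidopsis thaliana. They are the transporters PHT1;1, PHT1;2 and PHT1;4, the exporters PHO1 and PHO1;H1, the regulators PHO2, PHR1, SPX1 and SPX3, and the lipid enzyme SQD2, chosen by locus as 10 of the 27655 genes counted. All plants carried p35s:HF-RPL18, a tagged cytosolic ribosomal protein L18 driven by the viral 35S promoter. They were grown in hydroponics under 10 h light and 14 h dark for 6 weeks. For the last day (24 h) the plants either stayed on complete medium (CK) or had the magnesium sulfate of the medium exchanged for sodium sulfate (MgD). Root and shoot (rosette leaf) were taken, and from each either total RNA or the RNA bound to tagged ribosomes (TRAP RNA, by translating ribosome affinity purification) was sequenced. This gave 8 groups of 3 libraries: root or shoot, total or TRAP RNA, CK or MgD. TRAP RNA was meant to come only from cells in which the 35S promoter made tagged ribosomes. Every group, CK included, carried the transgene, so RNA recovered without tagged ribosomes could not be measured. The labels call the replicates independent without saying what was replicated, so the p-values reflect how much these libraries vary, and that variation could be technical.

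Plants take up phosphate through proton-coupled PHT1 carriers of the root plasma membrane, and PHO1 proteins load it from root cells into the xylem for transport to the shoot. The transcription factor PHR1 drives the starvation genes through a short promoter element called P1BS. SPX proteins bind inositol pyrophosphates and hold PHR1 back when phosphate is plentiful, while the ubiquitin-conjugating enzyme PHO2, itself silenced by the microRNA miR399 under starvation, marks PHT1 and PHO1 proteins for degradation.

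The libraries held 6147531 to 41472378 counts. RPL18B, which encodes ribosomal protein L18, was higher in TRAP than in total RNA by 2.82 ± 0.27 (log2, SE) in CK root and by 3.95 ± 0.12 in CK shoot. Markers of photosynthesis summed to 461 to 603 CPM (counts scaled to normalised library size) in CK root total RNA and to 79700 to 81500 CPM in CK shoot total RNA, and the 8 root hair markers to 53.5 to 115 CPM and to 1.03 to 1.72 CPM. All shoot TRAP libraries carried another lane number in their library names than all other libraries, so lane cannot be told apart from the groups in any comparison of shoot TRAP with shoot total RNA or with root TRAP RNA. In root total MgD replicate 3, the deposited TPM (transcript abundance per gene length and library) came from other reads than the deposited counts (11727562 recovered reads against 6147531 counts), so TPM and counts of that library are separate measurements. In bulk tissue, fewer cells of a type and less RNA per cell cannot be told apart.

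Levels per gene length (TPM, mean ± SD, n = 3) ordered the members differently in root and shoot. In CK root total RNA, PHT1;1 led with 785 ± 127 TPM, above PHO1 with 333 ± 46.8 and PHO2 with 280 ± 51.1. Those 2 overlapped, and both stood apart from PHR1 with 46.2 ± 5.66 TPM. PHT1;2 (36.0 ± 17.0), SPX1 (19.9 ± 5.33), PHO1;H1 (18.7 ± 7.60), SQD2 (10.5 ± 1.34) and PHT1;4 (9.57 ± 6.22) followed, each overlapping the next, and SPX3 was lowest with 0.865 ± 0.374 TPM. In CK shoot total RNA the order was PHO2 with 60.7 ± 2.85 TPM, PHR1 with 36.6 ± 1.37, SQD2 with 30.2 ± 3.95, PHO1 with 17.9 ± 2 and SPX1 with 8.88 ± 1.93. The carrier that led in root came at place 6 there with 3.75 ± 1.1 TPM, ahead of PHO1;H1 (2.15 ± 0.105) and PHT1;4 (0.802 ± 0.309), and no neighbours among these 8 overlapped. PHT1;2 (0.124 ± 0.0769 TPM) and SPX3 (0.0953 ± 0.0825 TPM) overlapped at the bottom. In CK root TRAP RNA the ranges of PHT1;1 (342 ± 220 TPM) and PHO2 (300 ± 21.5 TPM) overlapped, whereas PHO1 stood apart below them with 167 ± 39 TPM. In CK shoot TRAP RNA, PHO2 led with 94.1 ± 9.27 TPM, SQD2 followed with 45.7 ± 3.73, and PHR1 (35.8 ± 1.81) overlapped PHO1 (31.8 ± 2.52). In CK, SQD2 was at place 2 in shoot TRAP RNA and place 3 in shoot total RNA, and at place 8 in root RNA of either kind. SPX1 was intermediate everywhere, with 19.2 ± 5.86 TPM in CK root TRAP RNA and 11.3 ± 0.933 TPM in CK shoot TRAP RNA. SPX3 had 0 to 6 counts in every shoot library, with 0.189 ± 0.163 TPM in CK TRAP RNA.

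**Figure D1:**
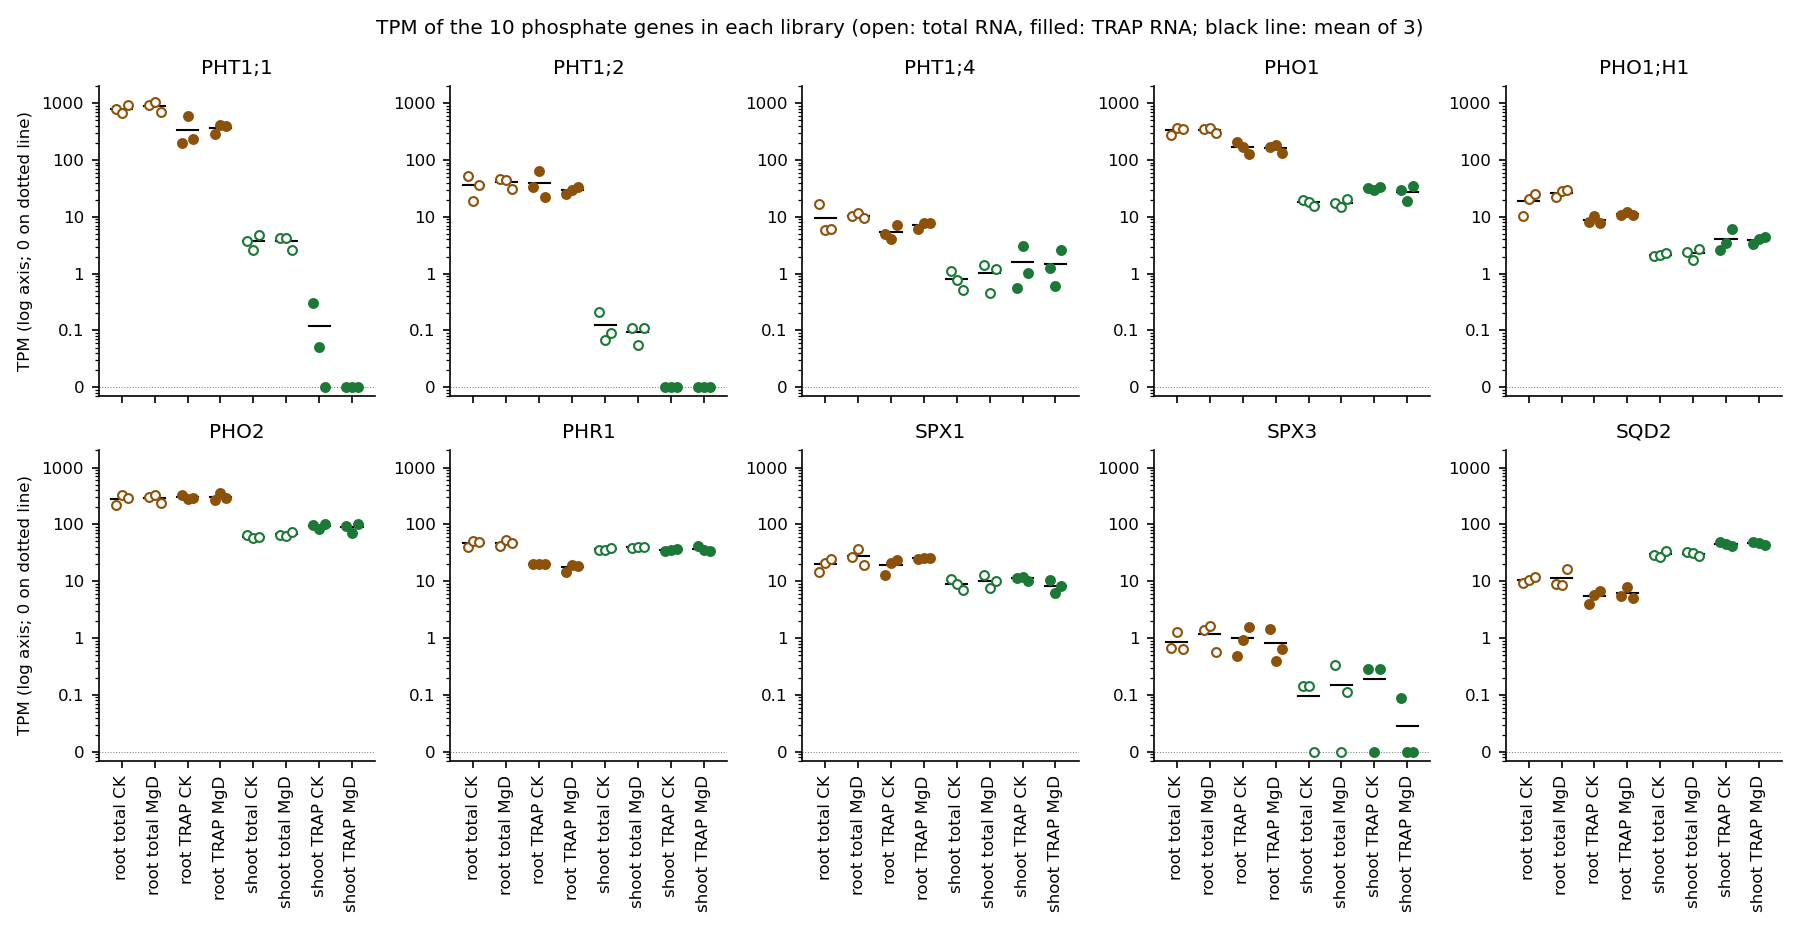
TPM of the 10 genes (log axis, values of 0 on the dotted line) in each library of the 8 groups. Open points are total RNA, filled points TRAP RNA, and the black line is the mean of 3 libraries. PHT1;1 lies at 658 to 1060 TPM in the root total libraries and at 0 in all 3 shoot TRAP MgD libraries, while PHR1 stays between 14.7 and 52.1 TPM in all libraries.

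In CK total RNA, the PHT1 transporters among the members were higher in root than in shoot. PHT1;1 (AT5G43350, chromosome 5, 17399769 to 17402158, minus strand, RefSeq TAIR10.1) is a main carrier of phosphate uptake. Its values were 812, 573 and 805 CPM in CK root total RNA, whereas they were 6.13, 4.43 and 7.96 CPM in CK shoot total RNA. The shoot mean was 0.846% of the root mean, and no shoot library came near a root library. PHT1;2 (AT5G43370, chromosome 5, 17415698 to 17417972, plus strand), a close copy on the same chromosome, stood at 51.4, 15.5 and 29.2 CPM in CK root total RNA and at 2 to 6 counts per library in CK shoot total RNA. PHT1;4 (AT2G38940, chromosome 2, 16257157 to 16260253, plus strand), another high-affinity root carrier, stood at 17.3, 5 and 5.42 CPM in CK root and at 1.83, 1.30 and 0.823 CPM in CK shoot total RNA. Its first root library stood well above the other two, and the tissues did not overlap.

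The first 2 of these transporters are near-identical, which bears on how reads are divided between them, and PHT1;3 beside them is less alike. The coding sequences of PHT1;1 and PHT1;2 were identical at 1539 of 1575 bases (97.7%), and 39.4% of the 100-base windows of PHT1;1 occurred unchanged in PHT1;2. PHT1;3 matched PHT1;1 at 89.5% and shared no such window. The stretch of coding bases 307 to 366 is shown because it separates PHT1;3 well. Capitals mark the 19 positions at which the 3 genes are not all alike.
PHT1;1: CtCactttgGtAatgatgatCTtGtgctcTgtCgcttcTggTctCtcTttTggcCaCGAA
PHT1;2: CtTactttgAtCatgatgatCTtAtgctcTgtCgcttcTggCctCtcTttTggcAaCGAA
PHT1;3: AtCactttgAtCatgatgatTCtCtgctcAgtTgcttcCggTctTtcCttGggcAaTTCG
Of the counts of these 3 genes, PHT1;1 held 96.2% in CK root total RNA and 89.8% in CK root TRAP RNA. PHT1;2 held 3.81% and 9.66%. The sources used here do not give how reads matching both genes were counted, so the values of PHT1;2 are uncertain. Summing the 3 genes left every call of PHT1;1 as it was.

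The exporters were likewise higher in root. PHO1 (AT3G23430, chromosome 3, 8387398 to 8393467, minus strand), which loads phosphate into the xylem, stood at 431, 475 and 463 CPM in CK root total RNA and at 48.1, 45.1 and 38.4 CPM in CK shoot total RNA. PHO1;H1 (AT1G68740, chromosome 1, 25812449 to 25816983, minus strand), its partly redundant relative, stood at 16.7, 28.9 and 34.7 CPM in root and at 5.37, 5.62 and 5.90 CPM in shoot. The tissues were apart for both genes, and the second spread more widely among root libraries than the first.

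PHO2 (AT2G33770, chromosome 2, 14277558 to 14283113, minus strand) was among the 3 highest members in root and the highest in shoot. Its CPM in CK total RNA were 480, 582 and 539 in root and 217, 204 and 202 in shoot. The PHO2 message outside its coding sequence carries 5 sites that pair with miR399, each with 2 mismatches to the full complement of its best miR399. They are shown with the mature microRNA because they are the known point of control of this gene. Capitals mark the seed (bases 2 to 8) and its complement in the sites. The microRNAs come from the RefSeq TAIR10.1 annotation, and all 6 share 1 seed.
miR399a: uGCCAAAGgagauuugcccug
miR399b and miR399c: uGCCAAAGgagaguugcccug
miR399d: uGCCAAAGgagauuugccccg
miR399e: uGCCAAAGgagauuugccucg
miR399f: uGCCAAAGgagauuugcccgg
PHO2 site at chr2:14282106-14282126, minus strand: tagggcaaatcttCTTTGGCa
PHO2 site at chr2:14281973-14281993, minus strand: tagggcatatctcCTTTGGCa
PHO2 site at chr2:14281884-14281904, minus strand: ttgggcaaatctcCTTTGGCa
PHO2 site at chr2:14281827-14281847, minus strand: tcgagcaaatctcCTTTGGCa
PHO2 site at chr2:14281770-14281790, minus strand: tagagcaaatctcCTTTGGCa
The miR399 loci are not rows of the count table, so the microRNA itself was not measured here. IPS1, a non-coding RNA that sequesters miR399 under starvation, had 2, 0 and 18 counts in the CK root total libraries. It had 8, 2 and 2 in the MgD root total libraries and 0 in all shoot libraries and root TRAP libraries. Its relative AT4 stood at 10.7, 17.9 and 16.8 CPM in CK root total RNA and at 2.36, 1.84 and 1.51 CPM in CK shoot total RNA.

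PHR1 (AT4G28610, chromosome 4, 14132811 to 14135292, minus strand) stood at 36.4, 38.8 and 37.4 CPM in CK root total RNA and at 52.0, 52.4 and 55.0 CPM in CK shoot total RNA. SPX1 (AT5G20150, chromosome 5, 6802282 to 6803655, plus strand), a nuclear inhibitor of PHR1, stood at 8.90, 10.7 and 13.2 CPM in root and at 10.6, 8.86 and 6.86 CPM in shoot, with overlap. SPX3 (AT2G45130, chromosome 2, 18606410 to 18607853, plus strand), a strongly starvation-induced relative of SPX1, had 8, 26 and 12 counts in the CK root total libraries and 2, 2 and 0 in the CK shoot total libraries. SQD2 (AT5G01220, chromosome 5, 86543 to 90117, minus strand), which makes the sulfolipid that replaces phospholipid in plastid membranes, stood at 10.7, 10.4 and 11.8 CPM in root and at 53.7, 51.1 and 64.1 CPM in shoot. Among the members, SQD2 and PHR1 alone were higher in every CK shoot total library than in every CK root total library on the CPM scale, but on the TPM scale PHR1 was higher in root.

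P1BS, the element that PHR1 binds, was searched as GNATATNC, which is its own reverse complement, in the 1000 bases before each annotated gene start. It was found in 6 members. PHT1;1, PHT1;2 and SPX3 held it at 2 places, and SPX1, SQD2 and PHO2 at 1. PHT1;4, PHO1, PHO1;H1 and PHR1 held none in this window. Of all 27441 promoters of this length, 20.3% held at least 1 and 2.8% held 2 or more, and of the 46 other phosphate genes listed below, 23 held it. Windows of 40 bases around 1 element of each are shown because they are the sequence the pathway's factor reads. Capitals mark the element.
PHT1;1, chr5:17402903-17402942, minus strand: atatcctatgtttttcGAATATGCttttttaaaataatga
PHT1;2, chr5:17415640-17415679, plus strand: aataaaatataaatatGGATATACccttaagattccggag
SPX1, chr5:6801531-6801570, plus strand: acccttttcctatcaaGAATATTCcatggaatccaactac
SPX3, chr2:18606304-18606343, plus strand: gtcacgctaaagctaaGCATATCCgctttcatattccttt
SQD2, chr5:90434-90473, minus strand: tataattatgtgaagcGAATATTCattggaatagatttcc
PHO2, chr2:14283616-14283655, minus strand: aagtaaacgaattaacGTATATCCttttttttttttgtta
The 6 genes with the element did not share a tissue pattern in total RNA by counts. PHT1;1, PHT1;2 and PHO2 were higher in root, SQD2 was higher in shoot, and SPX1 and SPX3 did not pass the test below. A match in these letters is a description of sequence, not of binding.

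**Figure D2:**
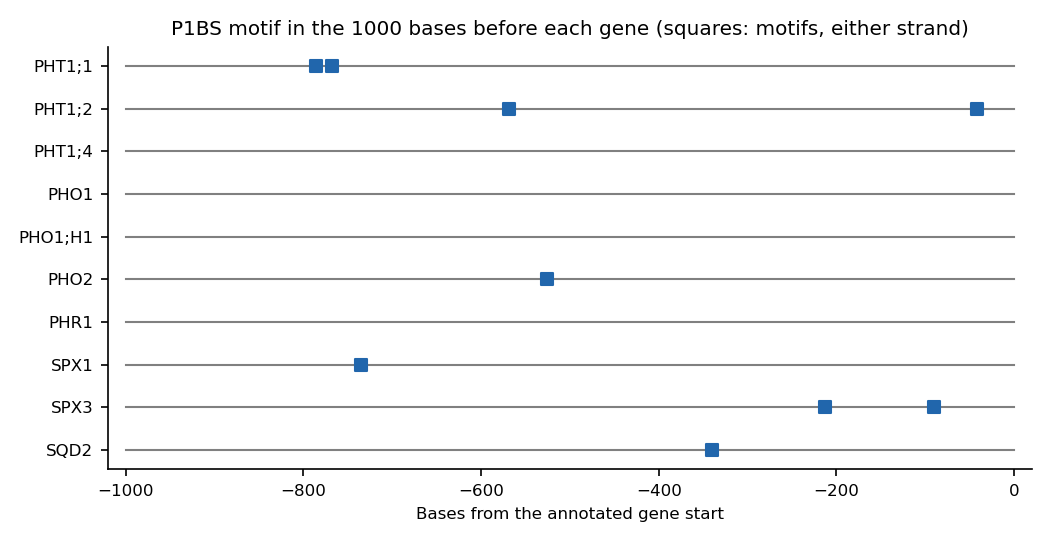
Places of the P1BS motif (squares, either strand) in the 1000 bases before the annotated start of each gene, in bases from the start. The element of PHT1;2 nearest to its gene begins 42 bases before the start, those of PHT1;1 begin 786 and 768 bases before it, and 4 of the 10 genes have none.

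Tested with edgeR's quasi-likelihood test and Benjamini-Hochberg adjustment over all genes, 8 of the 10 members differed between root and shoot in CK total RNA, 6 higher in root and 2 lower, where 64.8% of 21163 genes tested passed (33.6% higher and 31.1% lower). The log2 difference, root over shoot, was 6.89 ± 0.48 (SE) for PHT1;1, 7.33 ± 0.60 for PHT1;2 and 2.77 ± 0.63 for PHT1;4. It was 3.38 ± 0.21 for PHO1, 2.25 ± 0.27 for PHO1;H1 and 1.36 ± 0.16 for PHO2. SQD2 was lower in root by 2.36 ± 0.17, written as a log2 difference of -2.36. All of these had an edgeR adjusted p of 0.000636 or less. PHR1 was lower in root with a log2 difference of -0.50 ± 0.10 (edgeR adjusted p = 0.000156), but on the deposited TPM values it was higher in root by 0.33 (limma on log2(TPM + 0.1), adjusted p = 0.0151), where the median of all genes was itself shifted by 0.87. The adjusted p of PHR1 on log2(TPM + 1) was 0.0144. SPX1 (0.31 ± 0.22, edgeR adjusted p = 0.218) and SPX3 (2.19 ± 1.01, edgeR adjusted p = 0.0631) did not pass, but both were called higher in root on that TPM scale (1.14 and 2.35), which gave 9 members higher and 1 lower. PHT1;2 and SPX3 entered this fit through their root counts alone, so their counts describe them better than the test. The members' median log2 difference, with both included, was 2.22, beside 0.07 over all genes tested.

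In CK TRAP RNA all 10 members passed, 8 higher in root and 2 lower, where 68.8% of genes passed (35.9% higher and 32.9% lower, edgeR). PHT1;2 and SPX3 again entered the fit through their root counts alone, so their passes show no more than their counts do. PHT1;1 stood at 280, 752 and 299 CPM in root TRAP RNA, against 14, 2 and 0 counts in the 3 shoot TRAP libraries. PHT1;2 stood at 43.1, 75.3 and 26.8 CPM in root TRAP RNA and had no count in any shoot TRAP library, so that it was at least 1513-fold higher in root, against a floor of 3 counts over the shoot group. The log2 difference was 2.15 ± 0.20 for PHO1, 0.88 ± 0.26 for PHO1;H1, 1.42 ± 0.16 for PHO2, -1.08 ± 0.10 for PHR1 and -3.33 ± 0.18 for SQD2 (edgeR adjusted p = 0.00461 for PHO1;H1 and smaller for the others). PHR1 kept this direction on the TPM scale as well, unlike in total RNA.

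The calls of PHT1;4 (1.53 ± 0.58, edgeR adjusted p = 0.0245), SPX1 (0.50 ± 0.22, adjusted p = 0.0458) and SPX3 (2.09 ± 0.86, adjusted p = 0.0367) in root against shoot TRAP RNA were not stable. Against 8 members called higher, there were 7 with a block on the title number, 6 with a block on the number in the library names and 6 without a filter on low counts. SPX1 was lost in all 3 of these fits (edgeR adjusted p = 0.0524, 0.0999 and 0.0511), PHT1;4 with the number in the library names (0.0558) and SPX3 without the filter (0.0563). Without shoot TRAP CK replicate 1 the log2 difference of PHT1;4 was 1.14 (edgeR adjusted p = 0.111), without replicate 2 of that group it was 2.52 (0.00174), without replicate 3 it was 1.30 (0.0901), and without root TRAP CK replicate 3 it was 1.30 (0.081). SPX1 lost its call in 5 of 6 such fits, with adjusted p up to 0.231 and a log2 difference of 0.32 without root TRAP CK replicate 3. SPX3 lost its call without root TRAP CK replicates 2 or 3 or shoot TRAP CK replicates 2 or 3, with log2 differences of 1.51 to 2.36 and adjusted p of 0.0508 to 0.156.

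**Figure D3:**
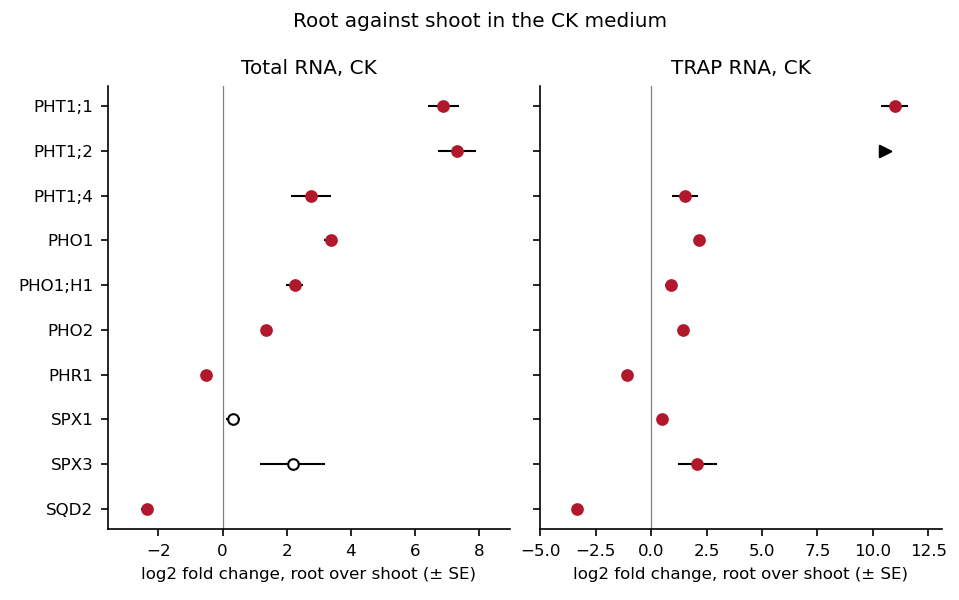
Log2 fold change of root over shoot (± SE) in CK total RNA (left) and CK TRAP RNA (right). Red points passed the edgeR test, open points did not, and the arrowhead is the lower bound for PHT1;2, which had no count in shoot TRAP RNA. SQD2 and PHR1 lie below 0 and the other members above it in both panels, though PHR1 in total RNA changes side on the TPM scale.

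The small PHT1;1 signal of the shoot was in total RNA and not in TRAP RNA. In CK shoot, PHT1;1 had 114, 82 and 116 counts in the total libraries and 14, 2 and 0 in the TRAP libraries, a log2 difference (TRAP over total) of -4.87 ± 0.62 (edgeR adjusted p = 6.04e-05). Nearly all of those TRAP counts were in replicate 1. PHT1;1 entered the shoot fit through its total RNA counts alone, so in both media its counts describe it better than the test. In MgD shoot it had 164, 166 and 102 counts in total RNA and 0 in all 3 TRAP libraries, at least 194-fold lower in TRAP RNA against the floor of 3 counts over the group (edgeR adjusted p = 9.25e-06). PHT1;2, too low to be tested in shoot, had 10 counts in total RNA and 0 in TRAP RNA in either medium. Most low counts of a library were even (81.8% to 92.3%), as when both mates of a read pair are counted, so a floor of 3 counts may be too low and such folds too large. Of 8 root hair markers, 5 were at 0 in CK shoot TRAP RNA, but these stood at only 0.028 to 0.387 CPM in CK root TRAP RNA. The others were at 70.7% (COBL9), 63.2% (PRP3) and 2.12% (RHD2) of root TRAP RNA, the first 2 on 6 counts each. CASP1 of the endodermis was at 0 in shoot TRAP RNA of both media. The median level of the root hair markers in CK shoot total RNA was 1.94% of that in root, with a range from 0.287% to 14.7%. Except for RHD2 with 47 counts, these shares rest on 2 to 4 shoot counts per marker. The part of root material in the shoot total libraries was not tested.

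In shoot, TRAP RNA held more of both exporters, PHO2 and SQD2 than total RNA did. In CK shoot, 8 members could be tested, of which 4 were higher in TRAP RNA and PHT1;1 lower, where 44.9% of 19341 genes passed (21.3% higher and 23.6% lower, edgeR). In MgD shoot the counts were again 4 higher and 1 lower, where 45.8% passed (22.1% higher and 23.7% lower). The lower one was PHT1;1 in both media. It entered the fit through its total RNA alone, so its passes show no more than its counts do. SQD2 stood at 92.6, 80.0 and 71.5 CPM in CK shoot TRAP RNA, above all total libraries, a log2 difference of 0.50 ± 0.11 (edgeR adjusted p = 0.00162), and 0.54 ± 0.11 in MgD (adjusted p = 0.000722). PHO1 stood at 79.8, 66.7 and 76.4 CPM in CK shoot TRAP RNA, 0.72 ± 0.18 above total RNA (edgeR adjusted p = 0.00382). PHO2 stood at 332, 268 and 319 CPM, 0.52 ± 0.12 above total RNA (edgeR adjusted p = 0.00207). PHO1;H1 stood at 6.89, 8.62 and 14.5 CPM, 0.79 ± 0.25 above total RNA (edgeR adjusted p = 0.0174), but by 0.44 (adjusted p = 0.125) without shoot TRAP CK replicate 3 and by 0.76 (0.0551) without shoot total CK replicate 1.

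In MgD shoot the same 4 members passed. SQD2 stood at 80.7, 86.3 and 77.3 CPM in TRAP RNA against 57.7, 58 and 51.5 CPM in total RNA, without overlap. PHO1 stood at 63, 47 and 82.7 CPM against 40.5, 36.8 and 49.9 CPM, and PHO2 at 285, 241 and 338 CPM against 210, 215 and 249 CPM, both with overlap. For PHO1 and PHO2 it was TRAP replicate 2 that reached down into the total range. PHO1 had a log2 difference of 0.59 ± 0.17 (edgeR adjusted p = 0.012), PHO1;H1 of 0.74 ± 0.25 (0.0208) and PHO2 of 0.35 ± 0.12 (0.0249). Each of these 3 lost its call without some single library: without shoot TRAP MgD replicate 3 they were 0.37 (adjusted p = 0.0677), 0.63 (0.0814) and 0.22 (0.183), and without shoot total MgD replicate 2 they were 0.51 (0.0525), 0.60 (0.0929) and 0.33 (0.078). Without shoot total MgD replicate 1, PHO1;H1 was at 0.75 (edgeR adjusted p = 0.0505) and PHO2 at 0.29 (0.104). Without shoot TRAP MgD replicate 1, PHO2 was at 0.35 (0.0505), and without replicate 2 of that group PHO1;H1 was at 0.68 (0.0701). PHR1 was nearly level, with log2 differences of -0.14 ± 0.09 in CK and -0.13 ± 0.09 in MgD (edgeR adjusted p = 0.229 and 0.248). PHT1;4 and SPX1 did not pass either, at 0.83 ± 0.68 and 0.24 ± 0.21 in CK. The median of the 8 tested members was 0.51 in CK, beside -0.03 over all genes tested. Guard cell markers were lower in CK shoot TRAP RNA (20.1 to 28.9 CPM summed) than in total RNA (50.5 to 64.2 CPM), with 3 of 4 passing, and their part in the members' differences was not tested.

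In root, PHR1 and PHO1 were lower and PHO2 was higher in TRAP RNA. Of 10 members, 1 was higher and 2 were lower in CK, where 48.2% of 20311 genes passed (22.6% higher and 25.5% lower), and 1 was higher and 3 were lower in MgD, where 52.5% passed (24.5% higher and 28.0% lower, edgeR). PHR1 stood at 24.8, 22.4 and 23.0 CPM in CK root TRAP RNA, below all 3 total libraries, with log2 differences of -0.69 ± 0.13 in CK (edgeR adjusted p = 0.00109) and -0.90 ± 0.13 in MgD (0.000152). In MgD root it stood at 17.5, 21.1 and 21.4 CPM in TRAP RNA against 33.4, 40.9 and 36 CPM in total RNA. It passed in all 16 alternative fits in CK and all 17 in MgD. PHO2 stood at 938, 735 and 792 CPM in CK root TRAP RNA, above all total libraries, with log2 differences of 0.61 ± 0.17 in CK (edgeR adjusted p = 0.0105) and 0.56 ± 0.17 in MgD (0.0143). In MgD root its TRAP libraries held 744, 945 and 780 CPM and its total libraries 584, 615 and 455 CPM, again without overlap. On log2(TPM + 1) the PHO2 differences were 0.11 and 0.06 and did not pass (limma, adjusted p = 0.606 and 0.791), where the medians of all genes were -0.46 and -0.48. The MgD call of PHO2 also fell away without root total MgD replicate 3 (0.44, edgeR adjusted p = 0.0628) or root TRAP MgD replicate 2 (0.45, 0.0694).

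PHO1 stood at 425, 320 and 243 CPM in CK root TRAP RNA, all below the total libraries. Its log2 difference of -0.48 ± 0.19 passed narrowly (edgeR adjusted p = 0.0495) and lost its call without any one of the 3 root total CK libraries (-0.51, -0.45 and -0.47, adjusted p = 0.0587, 0.12 and 0.106) and without root TRAP CK replicates 2 or 3 (-0.46 and -0.31, adjusted p = 0.109 and 0.173). In MgD root, PHO1 stood at 337, 341 and 261 CPM in TRAP RNA against 473, 485 and 454 CPM in total RNA. Its log2 difference there was -0.61 ± 0.19 (edgeR adjusted p = 0.0165), or -0.50 (0.0781) without root TRAP MgD replicate 3. PHO1;H1 was at -0.57 ± 0.24 in CK (edgeR adjusted p = 0.0622), or -0.80 (0.00391) without root total CK replicate 1, the lowest total library. In MgD it stood at 23.1, 24.3 and 22.1 CPM in TRAP RNA against 32.2, 39.7 and 48.0 CPM in total RNA, a log2 difference of -0.80 ± 0.24 (edgeR adjusted p = 0.0126), or -0.65 (0.057) without root total MgD replicate 3.

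PHT1;1 in CK root was decided by 1 library. Root TRAP CK replicate 2 held 752 CPM, and the other two held 280 and 299 CPM. The log2 difference was -0.73 ± 0.33 (edgeR adjusted p = 0.0837), or -1.34 (0.000636) without that library. In MgD, with 391, 520 and 525 CPM in TRAP RNA and 870, 945 and 687 CPM in total RNA and no overlap, it was -0.82 ± 0.33 (edgeR adjusted p = 0.0529). A block on the title number within each medium treats root total and TRAP libraries of the same number as pairs, which the labels do not state. With it, PHT1;1 passed in CK (-0.89, edgeR adjusted p = 0.0393) and MgD (-0.82, 0.0436). SPX1 (0.43, adjusted p = 0.0262) and SQD2 (-0.47, 0.0389) passed in CK with that block and not without it (0.44 ± 0.21, edgeR adjusted p = 0.0966, and -0.46 ± 0.22, 0.101). Over all alternatives in CK the adjusted p ran from 0.000636 to 0.247 for PHT1;1, from 0.0152 to 0.859 for SPX1 and from 0.0139 to 0.285 for SQD2.

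PHT1;2 was at 0.59 ± 0.40 in CK root (edgeR adjusted p = 0.239), or 1.12 (0.0314) without root total CK replicate 1, its highest total library, and at -0.02 ± 0.40 in MgD. SPX1 stood at 10.6, 15.9 and 18.5 CPM in CK root TRAP RNA, and SQD2 at 6.29, 8.17 and 9.68 CPM. SPX1 in CK root was at 0.64 (0.0152) without root TRAP CK replicate 1. SPX3 and PHT1;4 did not pass in either medium. The members' median was -0.42 in CK root and -0.25 in MgD root, beside -0.06 over all genes tested in both. On the TPM scale, which lowers the median of all genes to -0.46 in CK, no member was called higher and 5 were called lower in CK root, and the same counts were found in MgD root, where SQD2 went from 0.13 ± 0.22 (edgeR adjusted p = 0.645) to -0.75 (limma adjusted p = 0.0241). Root hair markers summed to 12.7 to 15 CPM in CK root TRAP RNA against 53.5 to 115 CPM in total RNA, with 7 of 8 passing as lower. The 4 endodermis markers summed to 24.2 to 33.0 against 118 to 179 CPM, all lower, and the 5 vascular markers to 251 to 293 against 145 to 171 CPM, with 2 passing as higher. The 8 photosynthesis markers summed to 811 to 1920 against 461 to 603 CPM, with 4 passing as higher and 1 as lower in CK, and 6 as higher and 0 as lower in MgD. The part of any of these markers' cells in the members' differences was not tested.

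**Figure D4:**
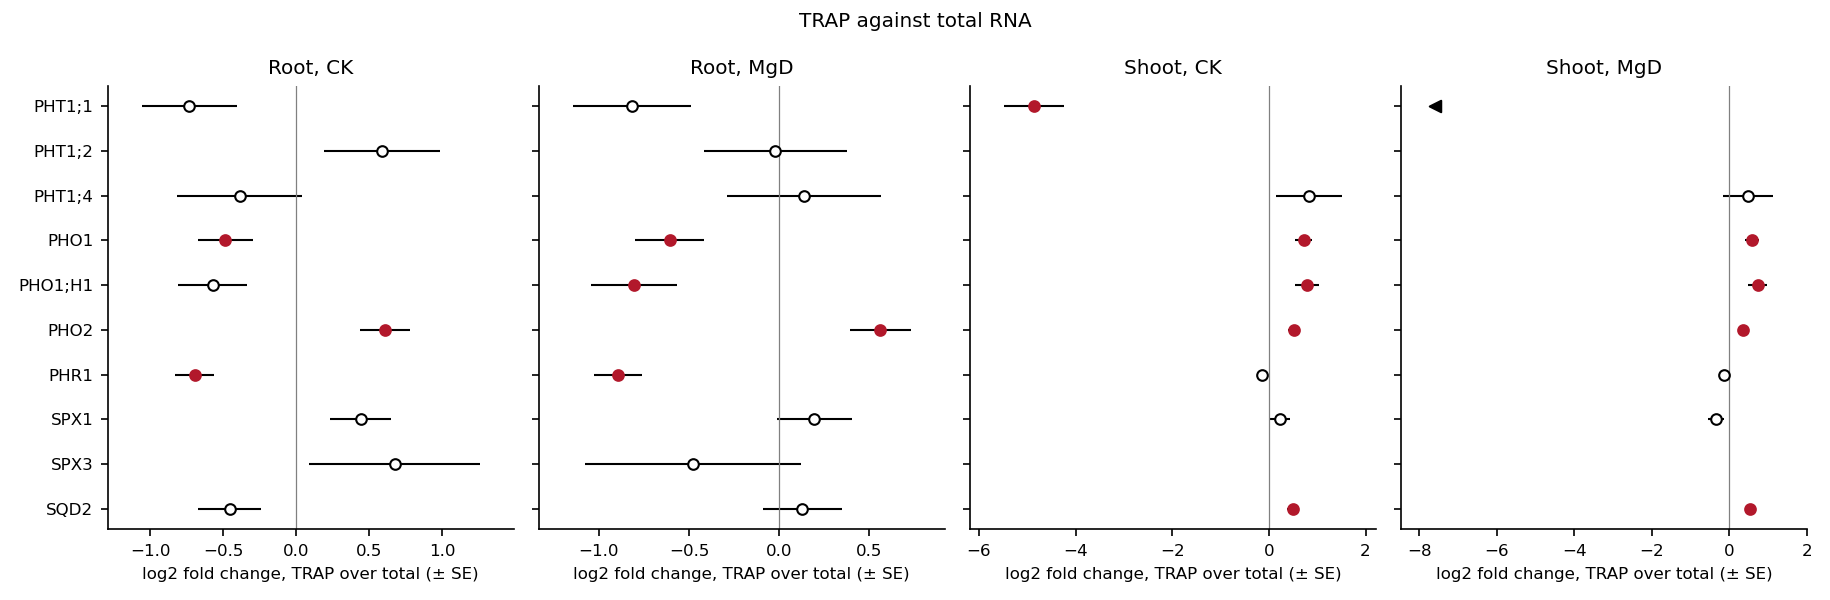
Log2 fold change of TRAP over total RNA (± SE) in CK and MgD root and CK and MgD shoot. Red points passed the edgeR test, open points did not, the arrowhead is the bound for PHT1;1, which had no count in MgD shoot TRAP RNA, and each panel has its own x axis. PHO1 lies at -0.48 and -0.61 in root and at 0.72 and 0.59 in shoot, and PHO2 lies to the right in all 4 panels, though on the TPM scale its root values shrink to 0.11 and 0.06.

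The difference between TRAP and total RNA itself differed between the tissues for 5 of the 8 members that could be tested in shoot, 1 higher and 4 lower in root in CK, where 28.9% of 21163 genes passed (16.2% higher and 12.7% lower, edgeR, interaction of tissue and RNA type). PHO1 was -1.23 ± 0.27 (edgeR adjusted p = 0.00181), PHO1;H1 -1.38 ± 0.37 (0.00736), SQD2 -0.97 ± 0.24 (0.00401) and PHR1 -0.58 ± 0.14 (0.00441), all lower in root, and these 4 passed in all 20 alternative fits. PHO2 was 0.06 ± 0.22 (edgeR adjusted p = 0.871) and turned to -0.51 (limma adjusted p = 0.0627) on log2(TPM + 1), a scale on which the median of all genes was -0.47. PHT1;1, which entered the fit through root RNA and shoot total RNA, was higher in root by 4.10 ± 0.73 (edgeR adjusted p = 0.000444), on 16 counts in shoot TRAP RNA. Without shoot TRAP CK replicate 1 this was 6.27 (edgeR adjusted p = 0.000127), and on log2(TPM + 1) it was 0.71 (limma adjusted p = 0.162). PHT1;2 and SPX3 entered this fit through their root counts alone, and their difference between shoot TRAP and total RNA could not be measured. The nominal pass of PHT1;2 (edgeR adjusted p = 0.0472, from 0.000307 to 0.588 over the alternatives) is therefore not counted. Lane cannot be told apart from shoot TRAP RNA in this comparison.

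After 1 day without magnesium, no member was called by edgeR, of 10 tested in either kind of root RNA and 8 tested in either kind of shoot RNA, where 0.0% of all genes tested passed in each. DESeq2 and limma on TPM also called none of the members. At an unadjusted p below 0.05 the members numbered 2 for root total RNA, 0 for root TRAP RNA, 0 for total RNA of shoot and 2 for TRAP RNA of shoot. All genes at that level numbered 503, 2284, 355 and 1433. DESeq2 called 1, 170, 0 and 16 genes in these comparisons.

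The transporters and PHO1 gave the following values. PHT1;1 in root total RNA stood at 870, 945 and 687 CPM in MgD, within and above the CK range, with a log2 change of 0.20 ± 0.33 (edgeR adjusted p = 1), and its change in root TRAP RNA was 0.12 ± 0.33 (adjusted p = 0.923). PHT1;2 and PHT1;4 were at 0.19 ± 0.40 and -0.11 ± 0.43 in root total RNA and at -0.42 ± 0.40 and 0.42 ± 0.43 in root TRAP RNA. PHO1, with the narrowest error among the carriers, stood at 473, 485 and 454 CPM in MgD root total RNA, a log2 change of 0.05 ± 0.19. PHO2 was at 0.05 ± 0.17 in root total RNA, 0.01 ± 0.17 in root TRAP RNA, and in shoot at 0.08 ± 0.12 (total) and -0.09 ± 0.12 (TRAP). PHR1 was at -0.02 ± 0.13, -0.22 ± 0.13, 0.04 ± 0.09 and 0.04 ± 0.09 in the same order.

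SPX1 gave the smallest unadjusted p of the members in root. In root total RNA it stood at 14.9, 19.5 and 16.8 CPM in MgD against 8.90, 10.7 and 13.2 CPM in CK, a log2 change of 0.65 ± 0.21 (unadjusted p = 0.00884, edgeR adjusted p = 1). In root TRAP RNA it stood at 19.8, 19.0 and 20.5 CPM against 10.6, 15.9 and 18.5 CPM, a log2 change of 0.40 ± 0.21 (edgeR adjusted p = 0.49). In either kind of root RNA every MgD value exceeded every CK value on the CPM scale. On the TPM scale root total MgD replicate 3 was at 19.2, below the CK values of 20.5 and 24.9, so that the media overlapped in total RNA. In shoot TRAP RNA the MgD libraries (9.16, 6.03 and 7.93 CPM) lay below all CK libraries (11.6, 11.1 and 9.25 CPM), a log2 change of -0.46 ± 0.21 (edgeR adjusted p = 0.646). The difference of the SPX1 response between root and shoot TRAP RNA was 0.86 ± 0.31 and did not pass (edgeR adjusted p = 0.32, and 0.0972 to 0.55 over the alternatives).

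On the CPM scale, the 2 media did not overlap in root total RNA for SPX1 and SPX3 (higher in MgD) and SQD2 (lower), where 10.2% of all genes tested did not overlap (4.44% higher and 5.79% lower). In root TRAP RNA they did not overlap for SPX1 and PHO1;H1 (higher) and PHR1 (lower), where 13.9% did not (6.99% higher and 6.94% lower). In shoot TRAP RNA SPX1 alone did not overlap among the members (lower in MgD, with 10.5% of all genes not overlapping and 4.8% lower), and in shoot total RNA no member did (7.6%). SPX3 in root total RNA stood at 0.312, 0.514 and 0.256 CPM in CK and at 0.581, 0.654 and 0.85 CPM in MgD, on 8 to 26 counts per library, a log2 change of 0.88 ± 0.59. On the TPM scale it overlapped, since MgD replicate 3 was at 0.58 TPM and the CK libraries at 0.637 to 1.30 TPM. SQD2 was at -0.41 ± 0.22 by counts. In MgD root total replicate 3, SQD2 was 16.3 TPM, the highest of the 6 root total libraries on that scale, whereas its 6.16 CPM from the counts was the lowest. Photosynthesis markers also moved in root total RNA, with sums of 203 to 392 CPM in MgD and 461 to 603 CPM in CK. All 8 were lower in MgD (median log2 change -0.95), none passed the edgeR test, and their part in the members' values was not tested. PHO1;H1 stood at 32.2, 39.7 and 48.0 CPM in MgD root total RNA, a log2 change of 0.58 ± 0.24 (unadjusted p = 0.0291, edgeR adjusted p = 1), and at 0.35 ± 0.24 in root TRAP RNA. PHT1;1 in shoot TRAP RNA went from 14, 2 and 0 counts to 0 in all 3 libraries (edgeR adjusted p = 0.576), and 1 CK library holds most of those counts. The members' medians were 0.12 and 0.06 in root total and TRAP RNA and 0.02 and -0.10 in shoot, beside -0.01, -0.01, -0.02 and 0.00 over all genes.

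**Figure D5:**
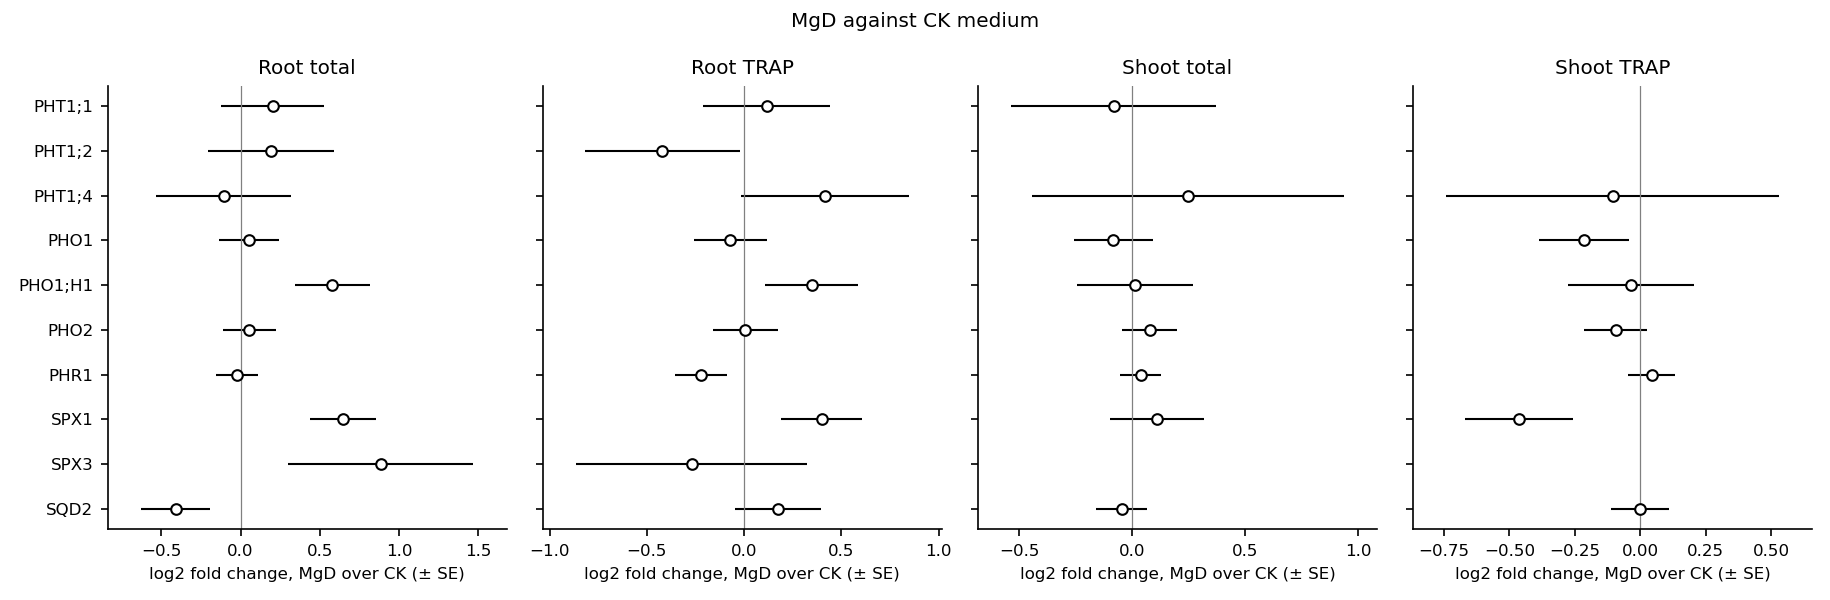
Log2 fold change of MgD over CK (± SE) in the 4 kinds of sample. Open points did not pass the edgeR test, PHT1;1 in shoot TRAP RNA is left out because its MgD group has no count, and each panel has its own x axis. No point is red, and SPX1 lies at 0.65 in root total RNA, 0.40 in root TRAP RNA and -0.46 in shoot TRAP RNA.

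The response to magnesium withdrawal was not shown by edgeR to differ between RNA types or tissues for any member. Of the members tested, 0 of 10 passed for TRAP against total response in root, 0 of 8 in shoot, 0 for root against shoot response in total RNA and 0 in TRAP RNA (edgeR, 8 members with a response that could be tested in shoot), where 0.0%, 0.0%, 0.0236% and 0.0% of all genes passed. Of all genes, 968, 764, 581 and 2301 had an unadjusted p below 0.05. DESeq2 called PHT1;1 in the last of these (adjusted p = 0.0305, from 0.0305 to 0.851 over the alternatives), where the MgD shoot TRAP group has no count.

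Beside the members, 46 other genes of the pathway were followed: 15 of transport, 14 of signalling, 10 of lipid remodelling and 7 phosphatases and nucleases. None passed for magnesium withdrawal among the 40 tested in root or the 38 tested in shoot (edgeR). In CK root, TRAP RNA was higher for 7 of the 40 others tested and lower for 7, where 22.6% and 25.5% of all genes were. By role these were 3 and 2 for transport, 2 and 4 for signalling, 1 and 1 for lipids, and 1 and 0 for phosphatases. PHT1;3 had 8, 9 and 11 counts in CK root total RNA and 25, 123 and 44 in TRAP RNA, a log2 difference of 3.56 ± 0.57 (edgeR adjusted p = 0.000327), whereas PHT1;1, near it on the chromosome, did not pass in that comparison. PHT2;1, a phosphate carrier of the plastid envelope, was higher in CK root TRAP RNA by 1.04 ± 0.15, the ferroxidase LPR2 by 0.71 ± 0.14, and the acid phosphatase PAP17 by 1.06 ± 0.23. The transcription factor WRKY75 (-1.47 ± 0.32) and the phospholipase PLDP1 (-0.90 ± 0.16) were lower. In MgD root the counts were 9 higher and 8 lower, where 24.5% and 28.0% of all genes were. PHF1, which PHT1 proteins need to leave the endoplasmic reticulum, was lower there by 1.13, a log2 difference of -1.13 ± 0.17.

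In CK shoot, 10 of the 38 others tested were higher in TRAP RNA and 2 lower, where 21.3% and 23.6% of all genes were. MgD shoot gave the same counts, where 22.1% and 23.7% of all genes were higher and lower. The mitochondrial carrier PHT3;1 (0.90 ± 0.12), the vacuolar PHT5;1 (0.67 ± 0.09), the acid phosphatases PAP12 (1.04 ± 0.13) and PAP26 (0.60 ± 0.09) and SPX2 (0.57 ± 0.11) were higher in CK. DGD1, which makes a galactolipid of plastid membranes, was lower (-0.50 ± 0.16). Between tissues in CK total RNA, 12 of 41 were higher in root and 11 lower, where 33.6% and 31.1% of all genes were. The plastid carriers PHT2;1 (-4.37 ± 0.15) and PHT4;1 (-4.64 ± 0.17) and the lipid genes SQD1 (-2.82 ± 0.20), the partner of SQD2 in sulfolipid synthesis, and DGD1 (-3.09 ± 0.22) were lower in root, like SQD2, and AT4 was higher (2.98 ± 0.27). In CK TRAP RNA, 11 were higher in root and 21 lower, where 35.9% and 32.9% of all genes were. For the difference of TRAP against total RNA between tissues, 1 was higher and 8 were lower in root, where 16.2% and 12.7% of all genes were. The lower ones were led by PHF1 (-1.52 ± 0.23), PAP12 (-1.04 ± 0.18) and PHT5;1 (-0.89 ± 0.15), with PDR2 (-0.75 ± 0.18) and SIZ1 (-0.52 ± 0.19) of signalling.

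Among 21163 genes, those nearest to each member in centred group means over the 8 groups (root mean square difference of log2(CPM + 0.5), a description without a test) were as follows. PHT1;1 was nearest to AT5G64100 (0.205) and BGLU22 (0.218), PHT1;2 to MYB68 (0.148) and AT1G31050 (0.173), and PHT1;4 to AT1G64530 (0.10) and PLL4 (0.106). PHO1 was nearest to TY1 (0.107) and AT4G18340 (0.109), and PHO1;H1 to the plasma membrane proton pump HA2 (0.11) and the calcium-dependent kinase CPK6 (0.123). PHO2 was nearest to VAM3 (0.0741) and IRX9 (0.0792), PHR1 to AT5G17270 (0.0629) and AT4G31310 (0.0728), and SQD2 to HHP1 (0.0973) and AT3G49340 (0.123). SPX1 was nearest to BLH11 (0.139) and TRM12 (0.142), and SPX3, on few counts, to CEN2 (0.0944) and AT5G55350 (0.0949). SPX3 stood at place 31 for SPX1, but SPX1 did not come within 100 places for SPX3. No other member came within 100 places of another.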

How the data were processed

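Counts per gene, without normalization, were deposited by the authors for 24 libraries, with a table of TPM. The reads were handled with FastQC, Trimmomatic, STAR 2.7.6a and Subread 2.0.0, per the submitters' processing notes. Settings and genome build are not given in the sources used here. The 8 further samples listed as removed were not analysed here. TPM equalled counts over gene length in 23 libraries, the exception being root total MgD replicate 3 (whole reads recovered for 100.0% of values within 0.05 read). Depth was 6147531 to 41472378 counts. Tests used edgeR 4.0.16 (R 4.3.3, filterByExpr, TMM, robust quasi-likelihood fit, Benjamini-Hochberg over all genes, threshold 0.05) on the 12 libraries of a tissue, or on all 24 between tissues. No block was used. CPM values printed are scaled by TMM over 24 libraries. The standard error is the log2 difference over the root of F. DESeq2 1.42.0 and limma 3.58.1 on log2(TPM + 1) and log2(TPM + 0.1) were alternatives. By correlation of deviations, title numbers linked root total with root TRAP libraries of 1 medium (3 pairs each, 0.229 to 0.527 in CK and 0.327 to 0.46 in MgD). Between the media, libraries with the same title number ran from 0.000612 to 0.428 in root total RNA and from 0.0383 to 0.51 in root TRAP RNA. Correlations of this size were thus not limited to total and TRAP libraries of 1 medium. The numbers in the library names differed within the pairs of CK replicate 2 and MgD replicate 3. These pairs had the lowest correlation of their medium, so the pairing there is uncertain. No 2 libraries agreed within sampling noise. Named genes are all members, the 2 others per role with the smallest adjusted p among those passing in a comparison (values are given for some), PHT1;3, RPL18B and the 2 genes nearest in pattern. IPS1 was named after its values were seen. Members and lists were chosen with earlier results of these data known. Coordinates and sequences are from RefSeq TAIR10.1. The value of 1 marker gene is not reported here.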

Additional observations from a re-analysis of the deposited data

Results flagged for a closer look

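The difference of TRAP against total RNA in normal medium differed between root and shoot by the interaction test (edgeR, Benjamini-Hochberg adjustment) for 5 members, and nominally for PHT1;2. Of all 21163 genes tested, 28.9% passed. The log2 value, root minus shoot, was 4.10 for PHT1;1, which had 16 counts in shoot TRAP RNA, -0.97 for SQD2, -1.23 for PHO1, -1.38 for PHO1;H1 and -0.58 for PHR1. For PHT1;2 the adjusted p was 0.0472, but it entered the fit through its root counts alone, its shoot difference could not be measured, and it was called in 7 of 21 alternatives. Shoot TRAP libraries carried a lane number of their own. The marker sums of root hair, endodermis and vascular cells and of photosynthesis moved between TRAP and total RNA of root. The part of lane and of these markers' cells in these differences was not tested.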

How the results depend on the processing

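Of 1128 member values recomputed without 1 replicate, 1083 kept direction and side of the threshold, 41 lost a call, 4 gained one and 0 reversed. Of 1305 values under other settings, 1256 kept both, 19 lost a call, 26 gained one and 4 reversed. Those 4 were on the TPM scale, for SQD2 in MgD root TRAP against total RNA (-0.75 and -0.83) and for PHR1 in root against shoot total RNA (0.32 and 0.33), and the cause was not tested.

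The number of members called in CK root TRAP against total RNA was 3, or 5 by limma with either pseudocount. With the title number as a replicate block it was 6, and 6 again with that block within medium, an alternative chosen after seeing the data. The original library numbers correlated in shoot (0.108 to 0.499), mostly over 2 shared numbers, and a block on them changed no shoot call of TRAP against total RNA. DESeq2 called 1 member for the difference of response between root and shoot TRAP RNA, where edgeR called 0. Without 1 replicate, the members called ranged from 2 to 4 in CK root, 2 to 4 in MgD root, 4 to 5 in CK shoot and 2 to 5 in MgD shoot for TRAP against total RNA. They ranged from 7 to 10 for root against shoot TRAP RNA, where 9 were called with the title block and 8 with the original-number block or without a filter on low counts, and from 5 to 6 for the interaction of tissue and RNA type, where PHT1;2 was the one that changed, and a block on either number also ended its nominal call.

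Over all genes, the magnesium comparisons went from 0 to 133 genes in root TRAP RNA and 7 in root total RNA with all 24 libraries in one fit, and to 64 in shoot TRAP RNA with the title block. The interaction of tissue and RNA type went from 6117 genes to 9985 and 9313 by limma. The response difference in total RNA, 5 genes, ranged from 0 to 22 without 1 library, and that in TRAP RNA reached 133 without root TRAP CK replicate 3 and 110 by DESeq2. Low counts limit PHT1;1 and PHT1;2 in shoot and SPX3 throughout.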
